A study of Mus musculus with 4 samples.

Results

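The cells described here are alveolar type II (AT2) cells of control mice at day 21 after pneumonectomy (PNX) and the same cells of sham-operated control mice. Each side is 1 single-cell RNA library. All mice of both libraries carried Sftpc-CreER, Rosa26-mTmG and Cdc42flox/+, were given in the labels as postnatal day 80 and had received 4 doses of tamoxifen. The control genotype is therefore not free of recombination: Cre driven from Sftpc acts on 1 floxed Cdc42 allele beside 1 intact allele, and it switches the mTmG reporter to GFP. Live GFP+ cells were sorted from protease-digested lungs. The number of mice behind each library and the hour of collection are not stated in the labels used. A cell was kept if it had at least 500 detected genes, at most 20% mitochondrial unique molecular identifiers (UMIs), at least 2% of its UMIs from Sftpc, and no UMI of Ptprc, Pecam1 or Col1a2. This kept 3566 of the 4363 cells in both control libraries and of the 10077 cells in the series, 1635 from sham and 1931 from PNX. The series also holds 2 libraries from mice with Cdc42flox/- in place of Cdc42flox/+ (Cdc42 AT2 null), 1 sham and 1 at day 21 after PNX, which serve here only as further levels of the same genes.

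AT2 cells make and store surfactant, the lipid and protein film that keeps alveoli open, and they divide and give rise to the flat alveolar type I (AT1) cells that carry gas exchange. Surgical removal of part of the lung raises the stretch and blood flow in the tissue left behind, and in mice the remaining lobes then grow new alveolar surface, with AT2 cells as an epithelial source. The comparison asks which genes differ in AT2 cells of Cdc42-sufficient mice once this growth has run for 21 days.

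With 1 library a side there is no test and no difference has a replicate check. UMIs were summed over the kept cells of each library, 8099735 in sham and 9903194 in PNX, and each gene was scaled to its library's total as counts per 1000000 UMIs (CPM). A count of 3 UMIs, the floor used here, is worth 0.370 CPM in sham and 0.303 CPM in PNX. Depth was alike, with a median of 4823 UMIs and 1478 genes per cell in sham and 4873 UMIs and 1592 genes in PNX. The median mitochondrial share was 4.82% in sham and 5.07% in PNX. Sftpc, the label's defining gene, made up a median of 12.8% of a cell's UMIs in sham and 12.2% in PNX. Around the Sftpc minimum, 102 sham and 9 PNX cells had 1% to 2% Sftpc, and 2 sham and 17 PNX cells had 2% to 3%. The sham and PNX libraries shared 2 cell barcodes, of which 1 was among the kept cells. Doublets were not removed.

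A gene was described if its summed level reached 20 CPM in either library and no single cell held over 30% of its UMIs, which left 4775 of 17117 genes. Most of them lay close together in the 2 libraries. The median CPM ratio of PNX over sham was 1.10, so each gene's ratio was divided by that median to give a relative ratio, and 78.6% of the genes were within 1.25-fold of 1. A gene is called higher or lower at a relative ratio of 1.5-fold or more. By that rule 152 genes were higher in PNX (3.18% of those described) and 130 were lower (2.72%). Of these, 35 were at least 2-fold higher and 46 at least 2-fold lower. Without division by the median, 262 were higher and 87 lower, so the higher genes made up 75.1% of the called genes in place of 53.9%. Nearest the limit among called genes were Csf2 with a relative ratio of 1.503 and Vsig2 with 0.6667. Nearest it among genes not called were Ext2 and Usp39 with 1.49 and Il11ra1 with 0.6671. The 2 genes left out because 1 cell held over 30% of their UMIs were Retnla, at 145 CPM in sham and 49.98 CPM in PNX, and Hist1h2ap, at 4.44 CPM in sham and 24.4 CPM in PNX. Intervals given below are exact 95% intervals from the counts, conditional on their sum. They cover counting error only and not the spread between mice.

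**Figure D1:**
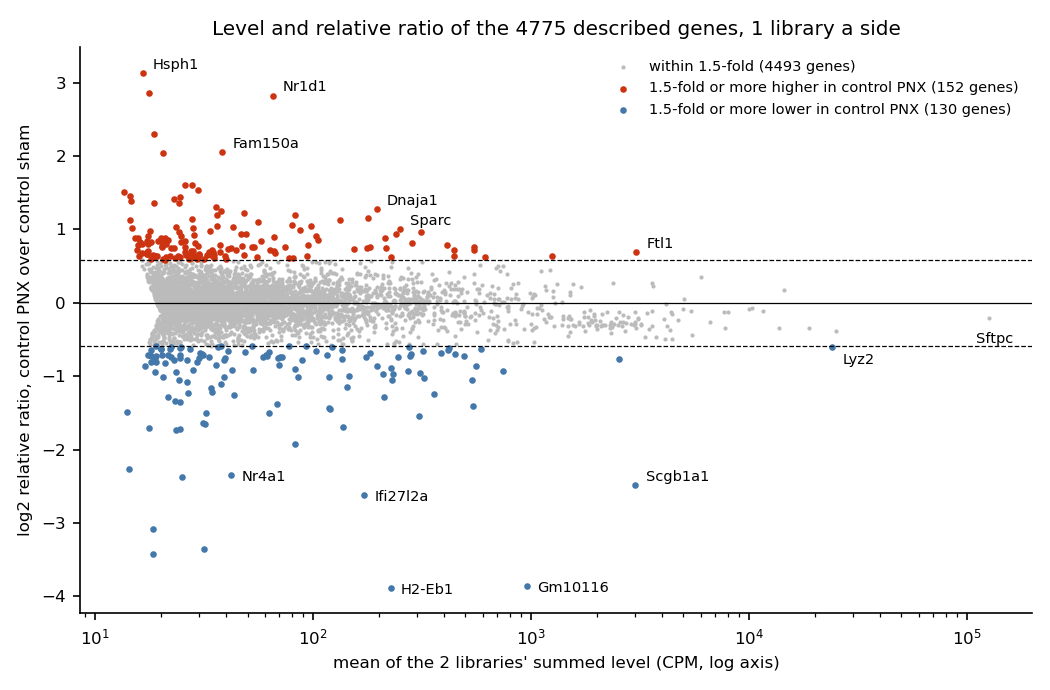
Relative ratio of PNX over sham (log2, vertical axis) against the mean level of the 2 control libraries (CPM, log axis), 1 point per gene of the 4775 described. Dashed lines mark 1.5-fold; the 152 higher genes are red and the 130 lower genes blue, and the lowest points, H2-Eb1 and Gm10116, lie further from 0 than the highest point, Hsph1.

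Chaperones of the cytosol led the genes that were higher after PNX. These proteins hold or refold unfolded chains, and HSF1 induces many of them when unfolded protein builds up. Of 35 listed heat-shock and cytosolic chaperone genes 33 were described, of which 12 were higher, 0 lower and 21 neither, with a list median log2 relative ratio of 0.32 against 0.00 over all described genes. Hsph1, an HSP70-family member that works as a nucleotide exchange factor (mm10 chr5:149614287-149636376), stood at 3.09 CPM in sham and 29.9 CPM in PNX, an 8.79-fold relative ratio (interval 5.84 to 13.8). Its null libraries lay between these, at 8.57 CPM in sham and 6.57 CPM in PNX, so control PNX was the highest of the 4. Hspa1b, an inducible HSP70, stood at 3.95 CPM in sham and 31.5 CPM in PNX, a ratio of 7.24 (5.02 to 10.8), with 2.11 and 7.67 CPM in null sham and null PNX. Its neighbour Hspa1a matches it at 99.2% identity over 2201 bases, so reads between the pair cannot be told apart with certainty. Hspa1a itself was under 20 CPM, at 3.09 CPM in sham and 16.6 CPM in PNX. Both genes of the pair were thus higher in PNX, and their split does not set the direction.

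Further chaperone genes past the limit included partners of HSP90. Chordc1, which binds HSP90, stood at 12.7 CPM in sham and 35.9 CPM in PNX, a ratio of 2.57 (2.06 to 3.23). Stip1, the adaptor that passes clients from HSP70 to HSP90, stood at 19.4 and 52.6 CPM, a ratio of 2.46 (2.06 to 2.97). Dnaja1, an HSP40 partner of HSP70, was far more abundant, at 107 CPM in sham and 285 CPM in PNX, a ratio of 2.42 (2.24 to 2.62). In the null libraries Dnaja1 stood at 106 CPM in sham and 274 CPM in PNX, close to the control libraries of the same surgery. Cryab, a small heat-shock protein that also marks AT1 cells, stood at 67.2 and 139 CPM, a ratio of 1.88 (1.70 to 2.08). The other 6 higher members, Hspb1, Cacybp, Hsp90aa1, Ahsa1, Hspa4l and Hsp90ab1, had ratios from 2.19 for Hspb1 down to 1.65 for Hsp90ab1; they fall outside the naming rule and were named after their values were seen. Ahsa2, a relative of the HSP90 activator Ahsa1 that was not in the list, stood at 7.16 CPM in sham and 21.6 CPM in PNX, a ratio of 2.74 (2.04 to 3.73).

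After every cell was thinned to 2000 UMIs, which left 1553 sham and 1863 PNX cells, a UMI of Dnaja1 was seen in 18.5% of sham cells and 41.3% of PNX cells (39.1% and 69.0% without thinning). Hsph1 was seen in 0.837% of sham cells (exact binomial interval 0.446% to 1.43%) and 6.44% of PNX cells (5.37% to 7.65%), 1.53% and 13.7% without thinning. Lymphocytes outside the gate, which make these chaperones themselves, showed Hsph1 in 5.63% of 71 thinned sham cells and 5.88% of 34 thinned PNX cells. Their summed Hsph1 level was 21.1 CPM in sham and 28.4 CPM in PNX. Some other chaperone genes also had higher levels in PNX than in sham lymphocytes. Dnaja1 stood at 204 and 405 CPM there, Stip1 at 73.8 and 128 CPM, Chordc1 at 24.6 and 56.9 CPM and Ahsa2 at 17.6 and 78.2 CPM. Hspa1b did not, at 3.51 CPM in sham and 0 in PNX lymphocytes, and Cryab was at 0 in both. These levels rest on the few UMIs of 85 and 38 lymphocytes, and whether the chaperone difference belongs to the whole library was not tested.

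The promoters of 26 of the 33 described chaperone genes were found in the RefSeq promoter table (GRCm38.p6, 300-base windows around a transcript start). The heat-shock element was searched as GAANNTTCNNGAA or, on the other strand, TTCNNGAANNTTC. It was present for 5 of the 26 genes, 2 of the 9 called higher and 3 of the 17 called neither, against 0.662% of 27025 genes in the table. The 2 higher genes with a match are shown because they carry it next to their start; capitals mark the matched bases. The Hsph1 window is chr5:149636287-149636586 on the minus strand and the Chordc1 window chr9:18292017-18292316 on the plus strand, where 3 overlapping matches run together.
Hsph1: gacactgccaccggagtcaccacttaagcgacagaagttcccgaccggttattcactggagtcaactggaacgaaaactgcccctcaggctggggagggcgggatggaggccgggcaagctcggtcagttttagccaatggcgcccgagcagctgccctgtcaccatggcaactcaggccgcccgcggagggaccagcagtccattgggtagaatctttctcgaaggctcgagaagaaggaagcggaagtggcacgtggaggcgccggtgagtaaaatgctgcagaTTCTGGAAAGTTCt
Chordc1: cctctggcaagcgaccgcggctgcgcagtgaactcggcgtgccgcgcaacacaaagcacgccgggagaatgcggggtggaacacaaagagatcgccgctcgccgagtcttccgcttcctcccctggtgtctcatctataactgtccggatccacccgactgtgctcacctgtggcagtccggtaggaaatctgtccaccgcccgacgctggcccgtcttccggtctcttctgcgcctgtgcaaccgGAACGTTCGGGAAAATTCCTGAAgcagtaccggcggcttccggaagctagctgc
A match describes these letters only, and no match in the other promoters says nothing of the factor. The list holds known heat-shock and chaperone genes, so a share above that of all genes describes how the list was made.

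Genes of the unfolded protein response of the endoplasmic reticulum (ER) were higher as well. This response raises ER chaperones and folding enzymes when secretory protein folds poorly, and AT2 cells are heavily secretory. Of 39 listed genes 29 were described, of which 7 were higher, 0 lower and 22 neither, with a median log2 relative ratio of 0.38. Sdf2l1, an ER-resident partner of BiP, stood at 12.7 CPM in sham and 42.7 CPM in PNX, a ratio of 3.05 (2.45 to 3.82). Hspa5, which encodes BiP itself, stood at 154 CPM in sham and 325 CPM in PNX, a ratio of 1.92 (1.80 to 2.06). In the null libraries Hspa5 stood at 217 CPM in sham and 385 CPM in PNX. Thus both PNX libraries held more Hspa5 than both sham libraries. Creld2, an ER protein disulfide isomerase, stood at 33.2 and 78.4 CPM, a ratio of 2.14 (1.86 to 2.47), and Pdia4, another isomerase, at 31.7 and 66.9 CPM, a ratio of 1.92 (1.66 to 2.22). The other 3 higher members, named after their values were seen, were Hyou1 with a ratio of 1.71, Manf with 1.70 and Calr with 1.67. Fkbp11, a prolyl isomerase of the secretory path outside the list, stood at 11.6 and 34.2 CPM, a ratio of 2.68 (2.13 to 3.40).

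Among the transcription factors of the response, 3 were inside the limit or too low to describe. Xbp1 stood at 112 CPM in sham and 131 CPM in PNX, a ratio of 1.06 (0.976 to 1.16), and Atf4 at 79.8 and 75.4 CPM, a ratio of 0.859 (0.772 to 0.956). Ddit3 was under 20 CPM in both, at 10.5 and 17.0 CPM, with a ratio of 1.47 (1.12 to 1.93). These 3 were singled out after their values were seen. At the next step of the secretory route, ER to Golgi transport and glycosylation, 0 of 43 described genes were higher and 0 lower. Over all described genes 3.18% were higher and 2.72% lower. Of the 43 genes in this list 34 had a ratio above 1 and 9 below, with a median of 0.06. Its most abundant members were Sec61b, a channel subunit of the translocon, with a ratio of 1.14 (1.09 to 1.18), and Sec61g, another subunit, with 1.04 (1.01 to 1.08).

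The ER stress element, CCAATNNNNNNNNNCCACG or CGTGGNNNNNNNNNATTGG on the other strand, was found in the promoters of 7 of the 24 response genes in the table, 3 of the 5 called higher and 4 of the 19 called neither. It is present for 0.137% of all 27025 genes there. The promoters of the 3 higher genes with a match are shown because they share this spaced pair of boxes; capitals mark the element. The windows are chr2:34771840-34772139 on the plus strand for Hspa5, chr15:88819396-88819695 on the plus strand for Creld2 and chr8:84846882-84847181 on the minus strand for Calr. The element reads CCAAT first in Hspa5 and in the opposite orientation in Creld2 and Calr.
Hspa5: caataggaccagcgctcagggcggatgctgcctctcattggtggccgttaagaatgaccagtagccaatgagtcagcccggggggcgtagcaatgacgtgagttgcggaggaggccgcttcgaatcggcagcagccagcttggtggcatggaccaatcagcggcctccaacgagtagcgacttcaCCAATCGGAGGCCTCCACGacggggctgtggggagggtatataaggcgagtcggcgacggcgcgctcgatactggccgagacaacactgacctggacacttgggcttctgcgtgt
Creld2: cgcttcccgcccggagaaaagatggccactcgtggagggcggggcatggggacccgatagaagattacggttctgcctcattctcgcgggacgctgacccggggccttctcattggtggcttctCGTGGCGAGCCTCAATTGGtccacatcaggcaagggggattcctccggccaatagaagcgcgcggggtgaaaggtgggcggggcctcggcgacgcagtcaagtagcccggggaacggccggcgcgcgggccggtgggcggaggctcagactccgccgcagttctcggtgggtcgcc
Calr: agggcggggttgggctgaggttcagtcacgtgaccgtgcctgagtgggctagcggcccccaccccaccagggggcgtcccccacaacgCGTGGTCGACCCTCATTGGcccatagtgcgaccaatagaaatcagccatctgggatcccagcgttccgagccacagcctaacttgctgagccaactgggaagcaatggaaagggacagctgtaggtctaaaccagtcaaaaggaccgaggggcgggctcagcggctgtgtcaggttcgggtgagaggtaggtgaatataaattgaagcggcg
The list holds genes known to answer ER stress, so a share above that of all genes describes how the list was made and not these libraries.

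Clock genes were among the widest differences and went both ways. The circadian clock runs on BMAL1 and CLOCK, which switch on their own repressors, so its genes peak at different hours of the day. Nr1d1, which encodes the repressor REV-ERBα (mm10 chr11:98767932-98775333), stood at 14.8 CPM in sham and 116 CPM in PNX, a ratio of 7.09 (5.87 to 8.63). Its paralogue Nr1d2 stood at 22.1 and 50.2 CPM, a ratio of 2.06 (1.73 to 2.46), and has a copy in the annotation at 96.1% identity. The output factor Dbp stood at 37.4 and 70.1 CPM, a ratio of 1.70 (1.48 to 1.95). Per1, a repressor that also answers glucocorticoids, went the other way, at 40.2 CPM in sham and 26.5 CPM in PNX, 1.68-fold lower (1.42 to 1.98). Thus 2 of 11 described core genes were higher and 1 lower, with a median of −0.02, and 3 of 12 described output genes were higher and 1 lower, with a median of 0.17. The higher output genes were Dbp, Hspa1b and Cys1, a cilium protein that stood at 17.8 and 30.4 CPM, a ratio of 1.55 (1.27 to 1.91).

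Clock genes on the opposite arm were too low to be described, and 2 are given after their values were seen. Arntl, which encodes BMAL1, stood at 17.4 CPM in sham and 5.35 CPM in PNX, and Cry1, a repressor, at 12.2 and 2.63 CPM. Both were lower where Nr1d1 was higher. In the null pair Nr1d1 went the other way, at 70.4 CPM in null sham and 22.7 CPM in null PNX, and so did Dbp, at 211 and 12.5 CPM. For Nr1d1 control PNX was the highest of the 4 libraries and control sham the lowest. The hour at which each lung was taken is not given, so an hour and the surgery cannot be told apart. A UMI of Nr1d1 was seen in 3.16% of thinned sham cells and 22.5% of thinned PNX cells (6.36% and 42.4% without thinning), against 0 of 71 lymphocytes in sham (exact upper limit 5.06%) and 5.88% of 34 in PNX.

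**Figure D2:**
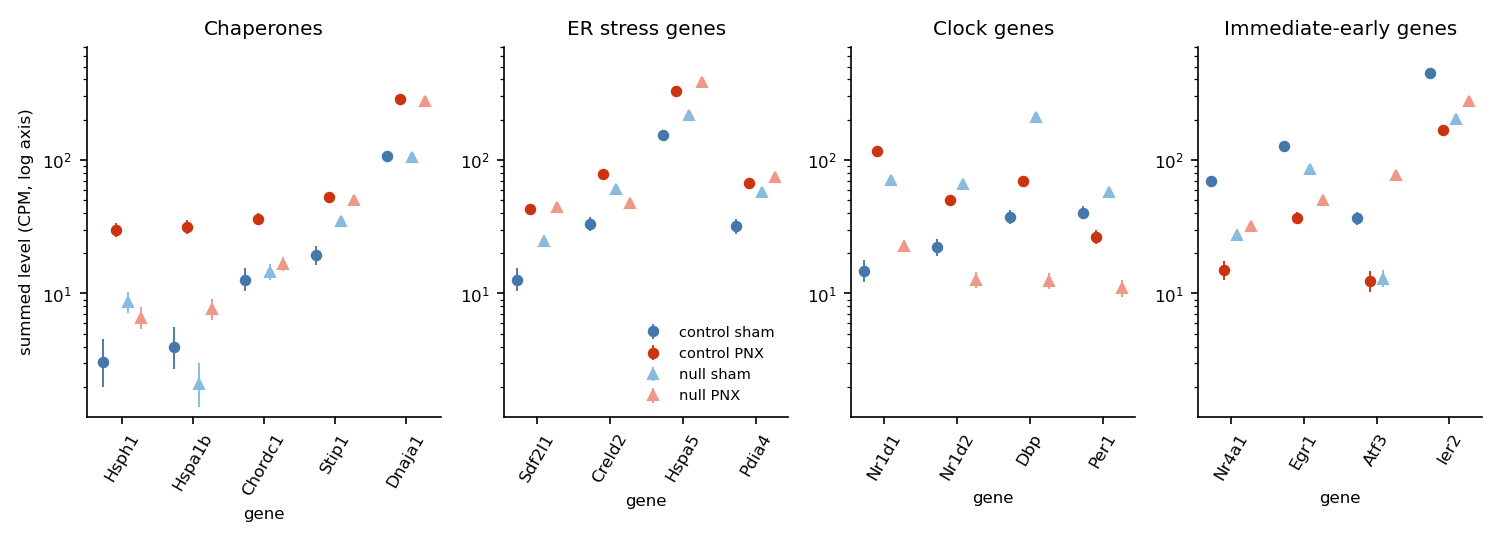
Summed level (CPM, log axis) of 17 genes in the 4 libraries, circles for the control genotype and triangles for the null genotype, with exact Poisson 95% intervals. Chaperones and ER stress genes are higher in control PNX than in control sham, Nr1d1 and Dbp go opposite ways in the 2 genotypes, and the 4 immediate-early genes are lower in control PNX than in control sham.

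Immediate-early genes were lower in PNX. These genes are transcribed within minutes of a stimulus. Of 37 listed genes 24 were described, of which 0 were higher, 11 lower and 13 neither, with a median log2 relative ratio of −0.53. Nr4a1, an orphan nuclear receptor, stood at 69.0 CPM in sham and 14.9 CPM in PNX, 5.09-fold lower (4.24 to 6.14). Egr1, a zinc-finger factor, stood at 128 and 37.0 CPM, 3.80-fold lower (3.37 to 4.30). Atf3, a stress-induced repressor, stood at 36.7 and 12.3 CPM, 3.28-fold lower (2.65 to 4.08). Ier2 was the most abundant of these, at 444 and 168 CPM, 2.91-fold lower (2.74 to 3.08). The other 7 were between 2.06-fold lower for Fos and 1.57-fold lower for Dusp1; Fos and Jun (1.90-fold lower) were named after their values were seen.

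Control sham stood highest of the 4 libraries for Nr4a1, Egr1 and Ier2, as null sham held 27.3, 86.2 and 201 CPM of them and null PNX 32.2, 50.4 and 274 CPM. Atf3 differed, with 12.9 CPM in null sham and 77.3 CPM in null PNX. After thinning, Ier2 was seen in 45.5% of sham and 25.3% of PNX cells (69.0% and 45.9% without thinning), while lymphocytes held it in 49.3% of 71 sham cells and 61.8% of 34 PNX cells. The share of cells with Ier2 was thus not lower in PNX lymphocytes. Other members differed there both ways in summed level, from few lymphocytes. Nr4a1 stood at 35.1 CPM in sham and 42.6 CPM in PNX lymphocytes, and Egr1 at 59.7 and 49.8 CPM. Dusp1 stood there at 436 and 284 CPM and Btg2 at 320 and 242 CPM, lower in PNX as in the alveolar cells. Whether the difference is confined to alveolar cells was not tested. The cyclic AMP response element TGACGTCA was found in the promoters of 3 of 21 immediate-early genes in the table, Btg2, Dusp1 and Maff. It was present for 2.03% of all genes there and 3.75% of the described genes there. The list holds known immediate-early genes, so a share above these describes how the list was made and not these libraries. Dusp1, at 159 and 112 CPM, and Btg2, at 217 and 149 CPM, were 1.57-fold and 1.60-fold lower, and neither passed the limit without division by the median ratio.

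Cirbp, the cold-inducible RNA-binding protein, stood at 170 CPM in sham and 68.5 CPM in PNX, 2.73-fold lower (2.49 to 3.00). The other 36 described genes of RNA binding, splicing and cold response were neither higher nor lower. Glucocorticoid-induced genes were split: of 13 described, Klf15 was higher, at 26.1 and 43.9 CPM (ratio 1.53, 1.30 to 1.81), and Mt1, Per1 and Dusp1 were lower. Mt1, a metallothionein that binds zinc, stood at 395 and 224 CPM, 1.94-fold lower (1.84 to 2.05). The median of that list was 0.01.

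Targets of p53 were higher in 4 of 14 described genes and lower in 1, Btg2, with a median of 0.38; 28 were listed. Phlda3, a repressor of AKT, stood at 12.2 CPM in sham and 36.6 CPM in PNX, a ratio of 2.72 (2.17 to 3.43), and at 12.7 and 79.8 CPM in the null pair. Ccng1, which encodes cyclin G1, stood at 26.2 and 59.2 CPM, a ratio of 2.05 (1.75 to 2.41), and at 38.1 and 80.5 CPM in the null pair. Bax, the pore former of mitochondrial apoptosis, stood at 70.5 and 140 CPM, a ratio of 1.81 (1.64 to 1.99). Aen, a nuclease of the same response, stood at 10.4 and 21.0 CPM, a ratio of 1.84 (1.42 to 2.40). For all 4, each PNX library held more than the sham library of its own genotype. Cdkn1a, which encodes the cell-cycle inhibitor p21 and was singled out after its value was seen, had a ratio of 1.33 (1.21 to 1.46), at 87.8 and 128 CPM.

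Division genes were scarce in both libraries. Mki67, a marker of dividing cells, stood at 2.59 CPM in sham and 3.64 CPM in PNX, below the 20 CPM minimum, with a ratio of 1.27 with an interval from 0.723 to 2.295. Only 9 of 33 listed cell-cycle genes were described. Among them Ccnd1, the cyclin of early G1, stood at 59.6 and 136 CPM, a ratio of 2.07 (1.87 to 2.31), and was seen in 10.2% of thinned sham cells and 22.6% of thinned PNX cells (21.4% and 42.5% without thinning), against 2.82% and 2.94% of lymphocytes. Ccnd2 was lower, at 21.1 and 12.8 CPM, 1.81-fold (1.43 to 2.299). Pttg1, securin, stood at 32.7 CPM in sham and 4.24 CPM in PNX, 8.50-fold lower (6.12 to 12.1), but at 4.28 CPM in null sham and 42.9 CPM in null PNX. Control sham and null PNX were thus the high libraries for Pttg1, while Mki67 stood at 0.843 CPM in null sham and 11.8 CPM in null PNX. Lymphocytes, with few cells, followed the same order as alveolar cells for Pttg1, at 123 CPM in control sham and 49.8 CPM in control PNX.

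Of 26 listed genes of AT1 identity 18 were described, of which 4, Cryab, S100a14, Aqp5 and Krt7, were higher and 0 lower. The list median was 0.31, and over all described genes 3.18% were higher and 2.72% lower. Aqp5, a water channel of AT1 cells, stood at 317 CPM in sham and 573 CPM in PNX, a ratio of 1.64 (1.57 to 1.72). Aqp5 was seen in 44.9% of thinned sham cells and 65.4% of thinned PNX cells (68.7% and 86.7% without thinning), against 7.04% and 8.82% of lymphocytes. S100a14 stood at 16.2 and 29.99 CPM, a ratio of 1.68 (1.37 to 2.08), and Krt7, a simple-epithelium keratin, at 48.1 and 84.9 CPM, a ratio of 1.60 (1.42 to 1.81). Ager and Hopx, which help define AT1 cells, lay close to a ratio of 1 in the main setting. Ager, the AT1 receptor RAGE, stood at 1309 and 1457 CPM, a ratio of 1.01 (0.985 to 1.04), and Hopx, an AT1 transcription cofactor, at 31.2 and 33.0 CPM, a ratio of 0.960 (0.812 to 1.14). The log2 ratio of Hopx ran from −0.65 to 1.98 over the alternative settings. It ran from −0.65 to 0.20 without the setting that kept 104 sham cells. At an Sftpc minimum of 1%, 4 of 18 described AT1 genes were higher and 1 lower, with a median of 0.21. Pdpn and Rtkn2, singled out after their values were seen, were far below the minimum, at 0.617 and 1.60 CPM in sham and 4.75 and 4.34 CPM in PNX.

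Of 17 described genes of the transitional state between AT2 and AT1, 2 were higher and 0 lower, with a median of 0.27. The 2, Ccnd1 and Krt7, are also in the lists of cell cycle and AT1 identity. Over all described genes 3.18% were higher and 2.72% lower. Krt8, the best known keratin of this state, stood at 135 and 195 CPM, a ratio of 1.31 (1.22 to 1.42), inside the limit. In the null genotype Krt8 stood at 899 CPM in sham and 2018 CPM in PNX, above both control libraries. The control libraries thus held the lower range of this gene.

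Of 40 listed matrix and adhesion genes 18 were described, of which 4 were higher and 0 lower, with a median of 0.23. The shares over all described genes were 3.18% higher and 2.72% lower. Lamb3, a chain of laminin-332 in epithelial basement membrane (mm10 chr1:193207699-193343878), stood at 7.41 CPM in sham and 33.6 CPM in PNX, a ratio of 4.12 (3.12 to 5.52). In the null pair Lamb3 stood at 62.7 and 154 CPM, so control sham was the lowest of the 4. Lamb3 was seen in 0.966% of thinned sham cells and 6.71% of thinned PNX cells (3.49% and 15.1% without thinning), and in 0 of 71 and 0 of 34 lymphocytes (exact upper limits 5.06% and 10.3%). Sparc, a collagen-binding matrix protein, stood at 156 and 344 CPM, a ratio of 2.00 (1.88 to 2.14), and at 176 and 626 CPM in the null pair. A UMI of Sparc was seen in 24.0% of thinned sham cells and 46.3% of thinned PNX cells (45.7% and 71.3% without thinning), against 1.41% and 5.88% of lymphocytes. Hspg2, perlecan, stood at 14.6 and 27.9 CPM, a ratio of 1.74 (1.40 to 2.17), and Timp2, an inhibitor of matrix proteases, at 24.9 and 44.2 CPM, a ratio of 1.61 (1.36 to 1.91).

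Actin genes were higher in 4 of 37 described members and lower in 0, against 3.18% and 2.72% of all described genes. The list median was 0.21. Tmsb10, which binds actin monomers, stood at 282 and 538 CPM, a ratio of 1.73 (1.65 to 1.82). Lymphocytes held it at 8098 and 7882 CPM, far above its level in alveolar cells. Flna, an actin cross-linker, had a ratio of 1.64 (1.42 to 1.91), Cald1, caldesmon, 1.61 (1.36 to 1.92), and Msn, moesin, 1.52 (1.36 to 1.70). The log2 ratio of Msn was inside the limit at an Sftpc minimum of 1% (0.50) or 5% (0.56) and at a mitochondrial limit of 10% (0.58), and furthest inside it, at 0.41, without cells holding 3 or more UMIs of other cell types' markers, Scgb1a1 counted. Several abundant genes gained many CPM without reaching the limit. Tmsb4x, another monomer binder, stood at 12965 and 16098 CPM (ratio 1.13), Cxcl15, the lung chemokine lungkine, at 5021 and 7043 CPM (1.27), and Actb, β-actin, at 2051 and 2726 CPM (1.21). Cdc42, the gene whose floxed allele the control mice carry, stood at 184 and 225 CPM, a ratio of 1.11 (1.04 to 1.19).

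Ion and water transport genes were higher in 4 of 17 described members, Aqp5 among them, and lower in 0, with a median of 0.14. Over all described genes the shares were 3.18% and 2.72%. Kcnk2, a stretch-gated potassium channel, stood at 18.4 and 38.4 CPM, a ratio of 1.89 (1.56 to 2.305), Scnn1b, a subunit of the epithelial sodium channel, at 11.4 and 23.6 CPM, a ratio of 1.89 (1.48 to 2.43), and Kcnk1, another potassium channel, at 29.1 and 49.98 CPM, a ratio of 1.56 (1.33 to 1.83). Kcnk2 was seen in 3.35% of thinned sham cells and 6.28% of thinned PNX cells (7.03% and 12.7% without thinning). Npnt, nephronectin, and Col4a4, a basement membrane collagen, were followed together with Kcnk2 and lay close to a ratio of 1. Npnt stood at 68.3 and 70.8 CPM, a ratio of 0.941 (0.841 to 1.05), and Col4a4 at 24.7 and 28.8 CPM, a ratio of 1.06 (0.880 to 1.27). After thinning, 27 of 1553 sham cells held UMIs of at least 2 of these 3 genes, 1.74% (exact binomial interval 1.15% to 2.52%), and 53 of 1863 PNX cells, 2.84% (2.14% to 3.70%). Without thinning these shares were 6.18% and 9.68%. The intervals cover counting error only, and with 1 library a side the difference was not tested.

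Most genes of AT2 identity lay within the limit. Of 35 listed AT2 and surfactant genes 34 were described, of which 0 were higher, 4 lower and 30 neither, and the median of −0.12 turned to 0.02 without division by the median ratio. Sftpc, which was used to choose the cells, stood at 128552 CPM in sham and 123177 CPM in PNX. Sftpa1, a collectin, stood at 27225 and 22908 CPM, 1.31-fold lower (1.30 to 1.32), and Sftpb, which spreads the surfactant film, at 14669 and 12746 CPM, 1.27-fold lower (1.26 to 1.28). The 4 lower members were Fabp5, a fatty acid carrier, at 3063 and 1992 CPM, 1.69-fold lower (1.66 to 1.73), Lyz2, lysozyme, at 27845 and 20174 CPM, 1.52-fold lower (1.51 to 1.53), Bex2, at 533 and 364 CPM, 1.61-fold lower (1.54 to 1.69), and Bex4, at 686 and 488 CPM, 1.55-fold lower (1.49 to 1.61). Of these only Fabp5 passed the limit without division by the median ratio. Lyz2 also has a near copy, Lyz1, at 95.8% identity, which was alike at 11471 and 11686 CPM. Lymphocytes, with few cells, held Lyz2 at 1792 CPM in sham and 4208 CPM in PNX, the opposite order. Their share of cells was lower in PNX, as Lyz2 was seen in 98.6% of thinned sham and 76.5% of thinned PNX lymphocytes.

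Cholesterol genes were lower where they passed the limit, and genes of lipid uptake differed both ways. Of 21 described genes of cholesterol synthesis 0 were higher and 3 lower, with a median of −0.39, and 19 of 21 had a ratio below 1. Insig1, which holds the sterol sensor in the ER, stood at 211 and 140 CPM, 1.67-fold lower (1.55 to 1.79), Lss, lanosterol synthase, at 24.1 and 16.3 CPM, 1.63-fold lower (1.32 to 2.02), and Fdft1, squalene synthase, at 74.2 and 51.5 CPM, 1.59-fold lower (1.41 to 1.79). Lss and Fdft1 were inside the limit without division by the median ratio. Of 20 described genes of lipid uptake, export and droplets 1 was higher and 3 lower. Apoe, the apolipoprotein, stood at 941 CPM in sham and 545 CPM in PNX, 1.90-fold lower (1.84 to 1.97), and at 231 and 100 CPM in the null pair. Lpl, lipoprotein lipase, stood at 46.4 and 22.01 CPM, 2.32-fold lower (1.96 to 2.76), and at 9.06 and 1.78 CPM in the null pair. Both genes were lower in each PNX library than in the sham library of its genotype. Lrp2, megalin, an endocytic receptor, was higher, at 109 and 200 CPM, a ratio of 1.66 (1.54 to 1.80). Surfactant phospholipid synthesis had 0 of 20 described genes called and a median of −0.12, and fatty acid synthesis 1 of 20, Insig1, and a median of −0.06. Such counts lie near the shares over all described genes, 3.18% higher and 2.72% lower.

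Ribosomal protein genes were slightly lower as a body. Of 82 described, 78 had a relative ratio below 1 and the median was −0.29, or −0.15 without division by the median ratio. Rpl29 was the 1 gene called lower, at 487 and 344 CPM, 1.56-fold (1.49 to 1.63), and it shares near-identical copies with other genes. Summed over the list, ribosomal protein genes held 196260 CPM in sham and 178746 CPM in PNX. Nuclear-encoded genes of oxidative phosphorylation were alike, with 0 of 59 called and a median of 0.00. Over all described genes 3.18% were higher and 2.72% lower.

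Several copies of ribosomal genes differed more than their parent genes. Of 27 described pseudogenes 10 were lower, and 0 were higher, against 2.72% and 3.18% of all described genes. Not all 10 copy ribosomal genes, as Gm10250 is closest to Atp5h and Zrsr1 to Zrsr2. Both fall outside the naming rule. Rpl13a-ps1 stood at 41.5 CPM in sham and 8.79 CPM in PNX, 5.20-fold lower (4.10 to 6.66), while its parent Rpl13a, 95.3% identical over 612 bases, stood at 3712 and 2972 CPM, a ratio of 0.727. Gm10263, 99.0% identical to Rps28, stood at 90.7 and 35.1 CPM, 2.84-fold lower (2.50 to 3.24), with Rps28 at 3233 and 2814 CPM. Rpl7a-ps5, 98.1% identical to Rpl7a, was 2.82-fold lower (2.35 to 3.39). Gm10076 was higher, at 914 and 1573 CPM (ratio 1.56, 1.52 to 1.61), and is 99.5% identical to Rpl41, at 7624 and 7719 CPM. Of the 27 pseudogenes, 9 were at least 1.5-fold above each of the other 3 libraries in control sham, against 62 of all 4775 described genes, and 14 were as far below each of the others in null PNX, against 677 of all. Whether read assignment differed between libraries was not tested.

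Gm10116, a gene model that matched no gene of the annotation used here, had the second lowest ratio. Gm10116 stood at 1778 CPM in sham and 135 CPM in PNX, 14.5-fold lower (13.7 to 15.3), and at 232 and 103 CPM in the null pair. Lymphocytes followed the same order for Gm10116, at 1124 CPM in sham and 56.9 CPM in PNX. The gap was thus seen outside the alveolar gate as well. Gm26870, another gene model, stood at 33.6 and 3.43 CPM, 10.8-fold lower (7.52 to 15.9).

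H2-Eb1, the beta chain of the MHC class II molecule I-E (mm10 chr17:34305867-34316674), had the lowest ratio of all described genes. H2-Eb1 stood at 422 CPM in sham and 31.5 CPM in PNX, 14.7-fold lower (13.1 to 16.6), and at 17.4 and 26.0 CPM in the null pair, so control sham alone was high. H2-Eb1 was seen in 49.7% of thinned sham cells and 5.69% of thinned PNX cells (67.8% and 13.7% without thinning), against 12.7% of lymphocytes in sham and 0 of 34 in PNX (exact upper limit 10.3%). The other class II genes did not follow. H2-Aa, the alpha chain of I-A, stood at 1486 and 1899 CPM, a ratio of 1.16, H2-Ab1 at 936 and 1105 CPM, a ratio of 1.07, and Cd74, the invariant chain, at 4668 and 5356 CPM, a ratio of 1.04 (1.03 to 1.06). H2-DMb2, a chain of the peptide exchanger, was higher, at 38.9 and 76.5 CPM, a ratio of 1.79 (1.57 to 2.04), and shares 95.4% identity with H2-DMb1.

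The same gap was present in immune cells outside the gate, a check added after H2-Eb1 was seen. Among Ptprc-positive cells under 2% Sftpc that held at least 10 summed UMIs of H2-Aa and H2-Ab1, or a UMI of the B cell gene Cd79a, H2-Eb1 gave 31.2 UMIs per 100 of H2-Aa in the 28 sham cells and 0.696 in the 31 PNX cells. Null sham gave 0.835 per 100 in 54 such cells and null PNX 1.00 in 77. In the alveolar cells the 4 values, were 28.4 and 1.66 for control sham and control PNX, and 1.47 and 1.14 for the null libraries. The sham library was therefore high in H2-Eb1 in more than 1 cell type. Genetic background beyond the listed alleles is not stated in the labels, and background and surgery cannot be told apart for this gene.

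**Figure D3:**
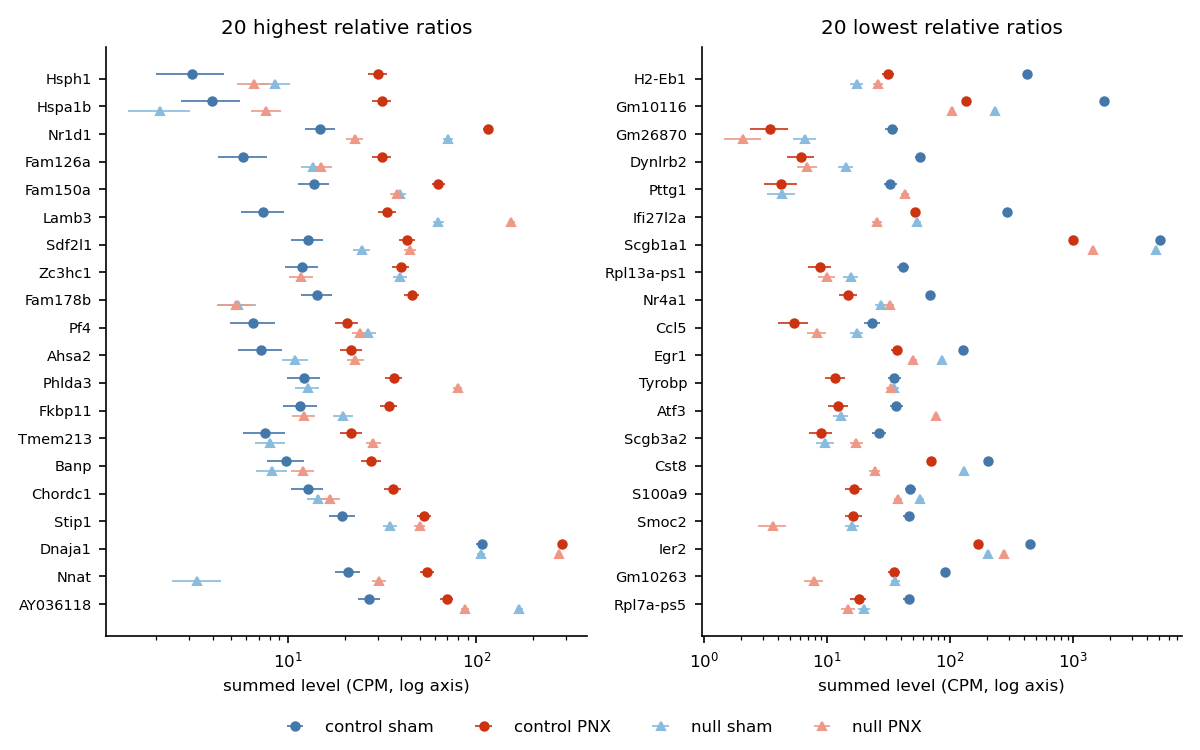
Summed level (CPM, log axis) of the 20 genes with the highest and the 20 with the lowest relative ratio, circles for the control genotype and triangles for the null genotype, with exact Poisson 95% intervals. For several genes on the right, such as H2-Eb1, Ifi27l2a, Gm10116 and Dynlrb2, the control sham point stands apart and the other 3 libraries lie together.

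Interferon-stimulated genes were lower in 3 of 11 described members and higher in 0, with a median of −0.27; 48 were listed and most were too low to describe. Ifi27l2a stood at 291 CPM in sham and 52.1 CPM in PNX, 6.16-fold lower (5.596 to 6.79), and at 54.2 and 25.5 CPM in the null pair. Lymphocytes held Ifi27l2a at 1265 CPM in sham and 505 CPM in PNX. Ifi27, a relative, stood at 296 and 195 CPM, 1.68-fold lower (1.58 to 1.78), and Ly6a at 25.8 and 18.8 CPM, 1.51-fold lower (1.24 to 1.85), a call lost under 6 of the alternative settings. Of 12 described genes of MHC class I and peptide loading 1 was lower, H2-T23, at 70.9 and 46.9 CPM, 1.67-fold (1.47 to 1.89). Over all described genes 2.72% were lower.

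Airway secretory genes were lower in PNX. Of 16 listed club and secretory markers 6 were described, of which 4 were lower and 0 higher, with a median of −0.91 and a summed level of 10698 CPM in sham and 5532 CPM in PNX; 3 of those in the table were at 0 in sham and 2 in PNX. Scgb1a1, the club cell secretoglobin, stood at 5032 CPM in sham and 987 CPM in PNX, 5.61-fold lower (5.49 to 5.74), and at 4735 and 1449 CPM in the null pair. A single cell held 13.2% of its UMIs. The log2 ratio of Scgb1a1 was −2.49 and became −2.29 without the top cell of each library, −1.82 in cells of 2000 to 8000 UMIs and −3.51 at an Sftpc minimum of 1%. Lymphocytes held Scgb1a1 at 1054 CPM in sham and 306 CPM in PNX, and 87.3% and 44.1% of thinned lymphocytes had a UMI of it against 95.8% and 60.7% of alveolar cells (99.3% and 84.9% without thinning). Scgb3a2, a second secretoglobin, was 3.27-fold lower (2.54 to 4.25), with 12.9% of its UMIs in 1 cell, Gsta3, a glutathione transferase, 2.12-fold lower (1.75 to 2.57), and Cyp2f2, an airway cytochrome, 1.67-fold lower (1.49 to 1.86). Whether free RNA accounts for these differences was not tested.

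Markers of other cell types were mostly at low levels. Macrophage and monocyte markers were described for 4 of 21, of which 3 were lower, with a summed level of 27994 CPM in sham and 20250 CPM in PNX, of which Lyz2 held 27845 and 20174 CPM; 1 marker was at 0 in sham and 2 in PNX. Tyrobp, a signalling adaptor of myeloid cells, stood at 35.3 and 11.7 CPM, 3.32-fold lower (2.67 to 4.16), and Fcer1g at 20.1 and 7.88 CPM, 2.81-fold lower (2.14 to 3.73), while the defining receptor Csf1r stood at 3.58 and 3.64 CPM. Neutrophil markers were described for 3 of 14, with a summed level of 493 CPM in sham and 584 CPM in PNX. S100a9 was 3.15-fold lower (2.62 to 3.81) and S100a8 1.76-fold lower (1.47 to 2.098). The remaining described marker was called neither, with a ratio of 1.21, and the summed level was higher in PNX. Lymphocytes, with few cells, held S100a8 at 1057 CPM in sham and 23632 CPM in PNX. Only a small share of them had a UMI of S100a8, 5.63% in sham and 5.88% in PNX after thinning. Without thinning it was 14.1% and 5.26%, so the PNX level came from few cells. Lymphocyte markers were described for 2 of 19, with a summed level of 71.7 and 38.3 CPM, and Ccl5 was 4.80-fold lower (3.52 to 6.64). Mesenchymal markers summed to 30.001 and 13.2 CPM and endothelial markers to 118 and 125 CPM, 0 of them called. Ciliated markers summed to 339 and 329 CPM. Of the 3 described, Dynlrb2, a dynein light chain, stood at 57.0 and 6.16 CPM, 10.2-fold lower (7.80 to 13.6). The other 2 were called neither, 1 of them above a ratio of 1, at 1.27. Foxj1, the defining ciliated factor, was at 1.98 and 0.303 CPM. Lymphocytes held Dynlrb2 at 3.51 CPM in sham and 0 in PNX, so its sham level in alveolar cells was above theirs. The part of other cells' RNA in the remaining results was not tested; without cells holding 3 or more UMIs of other types' markers, Scgb1a1 not counted, the totals were 151 higher and 133 lower, of which 148 and 126 were among those above.

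**Figure D4:**
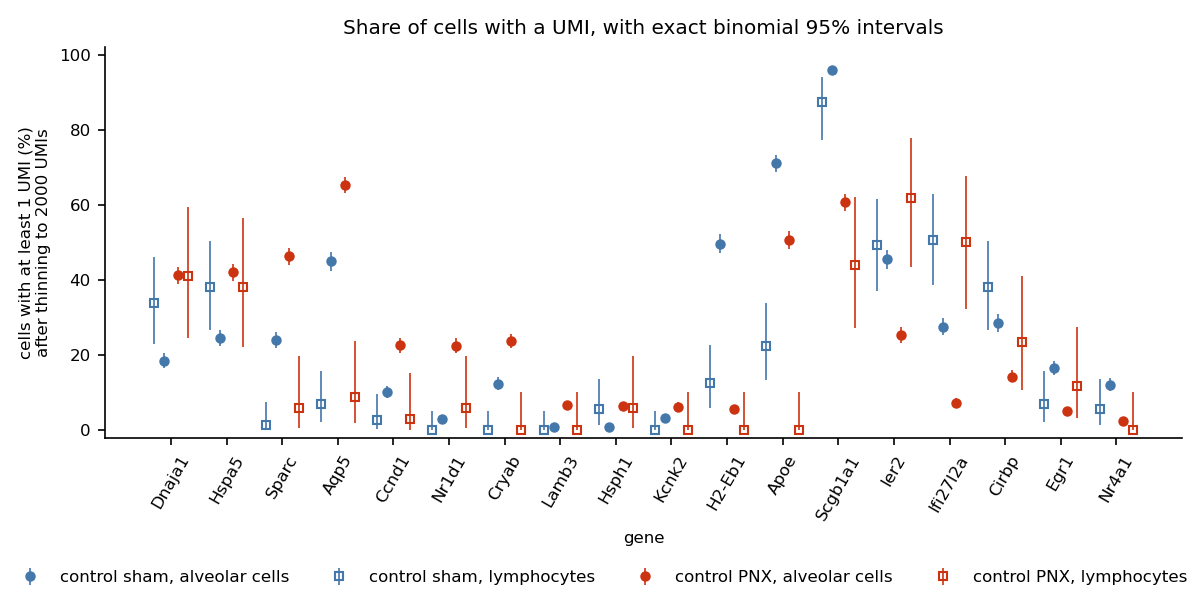
Share of cells with at least 1 UMI of a gene after thinning to 2000 UMIs, filled circles for alveolar cells (1553 sham, 1863 PNX) and open squares for lymphocytes of the same libraries (71 and 34), with exact binomial 95% intervals. Aqp5, Sparc and Nr1d1 are seen in more PNX than sham alveolar cells and in few lymphocytes, while Scgb1a1 is frequent in lymphocytes of both libraries.

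Detoxification and antioxidant genes were split, with 3 of 38 described members higher and 4 lower and a median of −0.05. Over all described genes 3.18% were higher and 2.72% lower. Ftl1, the ferritin light chain, stood at 2182 and 3884 CPM, a ratio of 1.62 (1.59 to 1.65), and Gstp1 at 141 and 285 CPM, a ratio of 1.84 (1.72 to 1.97); both have near copies in the annotation. Cyp2b10, a xenobiotic cytochrome, stood at 15.4 and 33.1 CPM, a ratio of 1.95 (1.58 to 2.41), and at 58.5 and 1.47 CPM in the null pair. Aox3, an aldehyde oxidase, stood at 110 and 60.2 CPM, 2.02-fold lower (1.81 to 2.24). Host defence genes were lower in 3 of 15 described members, Scgb1a1, Scgb3a2 and Lyz2, and higher in 1, Lrg1, an acute-phase glycoprotein, at 194 and 377 CPM, a ratio of 1.77 (1.66 to 1.88). In the null pair Lrg1 stood at 310 and 1830 CPM.

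Signalling lists had few calls, as had all described genes, of which 3.18% were higher and 2.72% lower. In lists as short as these, 0 calls lies near those shares. Of 9 described Wnt genes, 9 Notch genes, 14 genes of FGF receptor and ERK feedback, 6 of the EGF receptor and 8 of NF-kB feedback, 0 were called in either direction. Ctnnb1, β-catenin, had a ratio of 1.14 (1.09 to 1.19), Etv5, an FGF target that keeps AT2 cells, 0.848 (0.809 to 0.889), and Fgfr2, the FGF receptor of AT2 cells, 0.796 (0.744 to 0.852). Hes1, a Notch target, was just inside the limit at 81.5 and 131 CPM, a ratio of 1.46 (1.32 to 1.60). Single members were called elsewhere. Id1, a BMP target, at 20.1 and 36.1 CPM (1.63, 1.35 to 1.98), was the 1 call among 9 described BMP genes. Tgfbi, a TGF-β target, at 11.7 and 20.1 CPM (1.56, 1.21 to 2.01), was the 1 call among 13 described genes. Myof, a YAP target, at 25.7 and 44.5 CPM (1.57, 1.33 to 1.87), was the 1 call among 11. Gja1, connexin 43, was higher, at 47.3 and 84.6 CPM, a ratio of 1.62 (1.44 to 1.84). It was 1 of 2 higher among 21 described keratin and junction genes. Csf2, which encodes GM-CSF, the factor alveolar macrophages need, stood at 15.8 and 26.2 CPM, a ratio of 1.503 (1.21 to 1.87). Of 8 described chemokine and cytokine genes 1 was higher and 1 lower. Irs1, an insulin receptor substrate, was higher (1.64, 1.27 to 2.13). Igfbp6, an IGF-binding protein, was lower, at 166 and 107 CPM, 1.71-fold (1.57 to 1.85). These were the calls among 17 described genes of insulin, IGF and amino acid sensing. Elf5, an epithelial transcription factor, was 1.51-fold lower (1.29 to 1.76), a call lost under 5 of the alternative settings.

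The remaining genes with the highest ratios belong to no list of these. Fam126a stood at 5.80 CPM in sham and 31.5 CPM in PNX, a ratio of 4.93 (3.62 to 6.85), and Fam150a, as the file names it, at 13.7 and 62.9 CPM, a ratio of 4.17 (3.40 to 5.15). Zc3hc1, a protein of the nuclear pore basket, stood at 11.9 and 39.6 CPM, a ratio of 3.03 (2.42 to 3.83). Fam178b had a ratio of 2.90 (2.36 to 3.59), Tmem213 of 2.62 (1.96 to 3.54), Banp of 2.58 (2.00 to 3.35), Nnat, neuronatin, of 2.37 (1.99 to 2.84) and AY036118 of 2.34 (2.00 to 2.73). Pf4, a platelet chemokine, stood at 6.54 and 20.5 CPM, a ratio of 2.84 (2.09 to 3.93), with 0 UMIs in the lymphocytes of either library. Among the lower genes, Smoc2, a matrix-associated calcium-binding protein, stood at 46.3 and 16.4 CPM, 3.12-fold lower (2.59 to 3.77), and Cst8, a cystatin, at 204 and 69.9 CPM, 3.22-fold lower (2.94 to 3.52).

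The null pair, sham and PNX of the other genotype, shares no library with the control pair and was read through the same gate and genes. Null PNX differed more widely from null sham, with 640 of 4775 genes higher (13.4%) and 945 lower (19.8%) at the same limit. Of the 152 genes higher in control PNX, 40 were higher in null PNX (26.3%) and 37 lower (24.3%). Of the 130 genes lower in control PNX, 20 were higher in null PNX (15.4%) and 60 lower (46.2%). Against the shares of all genes, the lower genes were lower in the null pair more often, while the higher genes were above the shares in both directions; neither difference was tested. Heat-shock and cytosolic chaperone genes were higher in 9 and lower in 1 of 33 in the null pair, the unfolded protein response in 8 and 2 of 29, p53 targets in 6 and 0 of 14, AT1 identity in 4 and 5 of 18, and immediate-early genes in 5 and 4 of 24. These counts compare 2 pairs of libraries of different genotype and depth, and they are no replicate of the control pair.

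Control sham also stood apart from all other libraries for part of the lower genes. At the same limit, and with each library scaled to the median ratio, control sham was above each of the other 3 for 62 of the 130 lower genes and below each of them for 43 of the 152 higher genes, and control PNX was above each for 35 of the higher genes and below each for 15 of the lower ones. Those counts are bound to the rule that chose the genes and are given as a description. Over all described genes control sham was above the other 3 in 62 and below in 43, control PNX in 35 and 15, null sham in 44 and 40 and null PNX in 434 and 677. For the genes where control sham alone is high or low, the library and the surgery cannot be told apart.

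**Figure D5:**
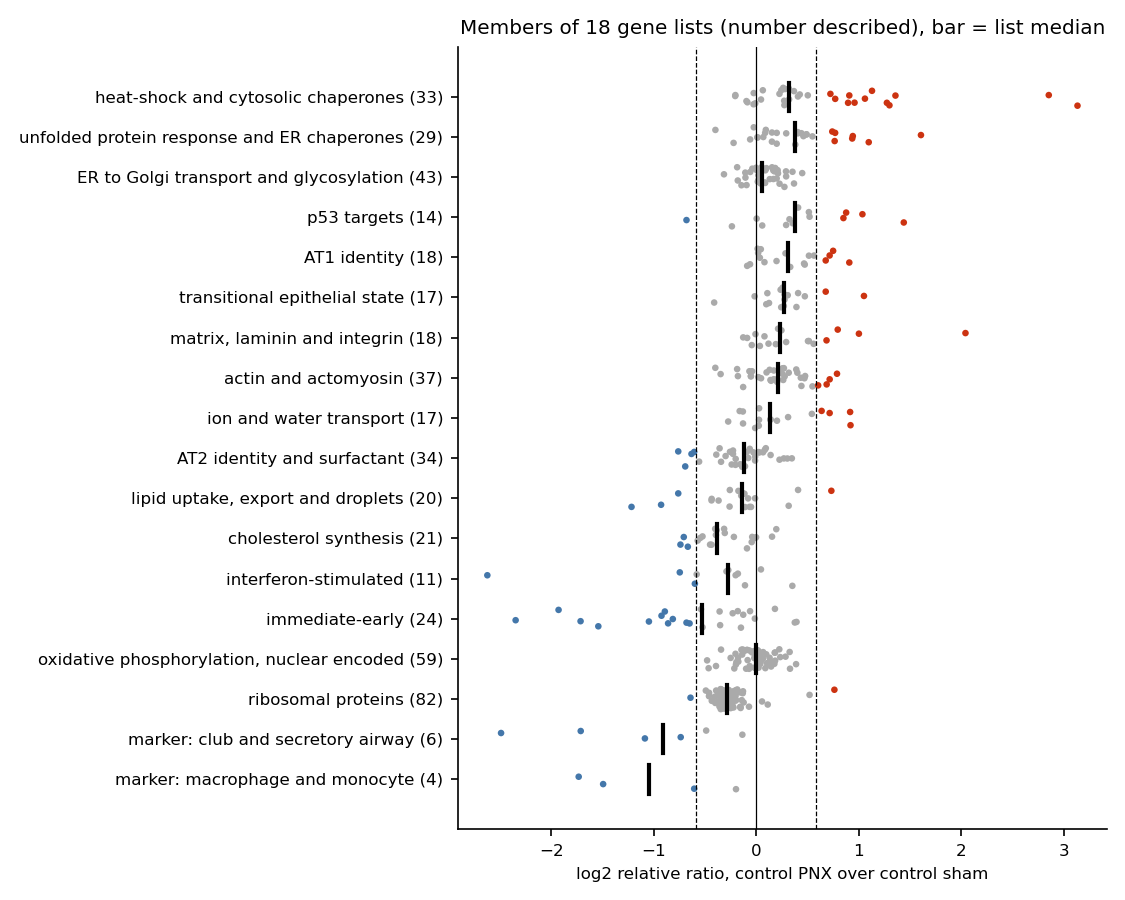
Log2 relative ratio of PNX over sham for the described members of 18 lists (number described in brackets), 1 point per gene, red at 1.5-fold or more higher, blue at 1.5-fold or more lower, with the list median as a bar. Chaperone and unfolded protein response genes reach to the right and immediate-early genes to the left, and ribosomal protein genes gather left of 0 with a median of −0.29.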

How the data were processed

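Sorted GFP+ lung cells were profiled by 10x Genomics 3' single-cell RNA sequencing, 1 library per group, per the labels' protocols. The authors deposited 1 table of raw UMI counts per gene and cell for all 4 libraries, and the library of each cell was read from its barcode suffix. The submitters' processing notes name Cell Ranger 2.1.0, Seurat 2.3.4 and the mm10 build; parameters are not stated there. 0 columns of other samples were present. Doublets were not removed, and how the deposited cells were chosen is not given. UMI counts were summed over kept cells and scaled to CPM; ratios carry exact conditional binomial 95% intervals, levels exact Poisson and shares exact binomial ones (SciPy 1.17.1, Python 3.11.15, NumPy 2.4.6, pandas 2.3.3). Intervals cover counting error only. Shares of cells were computed after thinning to 2000 UMIs, which left out 82 sham and 68 PNX cells. Lymphocytes, read for background, were cells with Ptprc, under 2% Sftpc and at least 2 UMIs of Cd3d, Cd3e, Cd79a, Ms4a1 and Nkg7 together. The scripts were tested on simulated data. The alternatives in the closing part used other scalings (edgeR 4.0.16 in R 4.3.3 for TMM factors), filters and gates. Positions are from GENCODE M21 for mm10, where 4645 of 4775 described genes matched 1 gene, and near copies were found with BLAST 2.17.0 as another gene with at least 95% identity over 200 bases. Named genes were the 20 highest and 20 lowest ratios, the 10 largest gains and 10 largest losses in CPM, and up to 4 members past 1.5-fold per direction in each list (the 2 most abundant where none passed), together with Sftpc, Cdc42, Krt8, Ager, Hopx, Mki67, Kcnk2, Col4a4 and Npnt. The members and the lists were chosen with earlier results of these data known. A few genes and 1 gene list are not reported here.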

Additional observations from a re-analysis of the deposited data

Results flagged for a closer look

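For 21 of 156 named genes the control pair and the null pair differed from sham in opposite directions, each by at least 1.5-fold. Whether the pairs differ was not tested, since each group is 1 library. Each value below is the relative ratio of PNX over sham in the null pair, with that of the control pair in brackets. Clock and clock-linked genes were higher in control PNX and lower in null PNX: Nr1d1 at 0.288 (7.09), Nr1d2 at 0.171 (2.06), Dbp at 0.0528 (1.70), Cys1 at 0.156 (1.55) and Klf15 at 0.0482 (1.53). The same order held for Zc3hc1 at 0.265 (3.03), Fkbp11 at 0.552 (2.68), AY036118 at 0.461 (2.34), Kcnk2 at 0.530 (1.89) and Flna at 0.643 (1.64). It held also for the metabolic genes Cyp2b10 at 0.0225 (1.95), Gstp1 at 0.371 (1.84) and Cth at 0.464 (1.85), and for Gm10076 at 0.209 (1.56), which has a near-identical copy. The opposite order held for Pttg1 at 8.95 (0.118), Atf3 at 5.34 (0.305), Ly6a at 4.12 (0.661), Klf2 at 2.04 (0.569), H2-T23 at 1.68 (0.600), Scgb3a2 at 1.61 (0.305) and Elf5 at 1.53 (0.663).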

How the results depend on the processing

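No paired analysis was possible because each group is 1 library. The 152 higher and 130 lower genes changed most with the minimum level and the cells used. They became 261 and 234 at 10 CPM, 57 and 65 at 50 CPM, 1257 and 1387 with no minimum, and 35 and 46 at 2-fold. Without division by the median ratio 262 were higher. Leaving out cells with 3 or more UMIs of other cell types' markers gave 902 and 899, from 104 sham and 1021 PNX cells, as Scgb1a1 UMIs put most sham cells out; not counting Scgb1a1, an alternative chosen after seeing the data, gave 151 and 133. Of 112 named genes past 1.5-fold, 82 were past it in every alternative that still described them. With that marker filter left out, 96 were. Alternatives under which a gene was no longer described were not counted for it. Pf4 and Tgfbi, for example, had 11 and Nr1d1 had 16. A change of sign was counted only for called genes and for lists whose members' interval limits had medians on the same side of 0. Other lists could change sign without being counted here. Without division by the median ratio, the sign of a log2 median turned for AT2 identity (0.0177), mitochondrially encoded genes (0.0171) and translation factors (0.0038). For chemokines it turned at 10 CPM (-0.0365), with no minimum (-0.42) and at 1% Sftpc (-0.25). For neutrophil markers it turned at 50 CPM (0.29) and for endothelial markers with no minimum (-1.18). Under the marker filter the sign turned for host defence (0.0566), macrophage markers (0.63), Irs1 (-0.34) and Elf5 (0.85). The cause of these changes was not tested. With 1 library a side, depth limits counting error only.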
